A study of Mus musculus with 16 samples.

Results

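Glycolysis and glucose uptake were followed through 10 genes of mouse flexor tendon, Slc2a1, Hk2, Pfkp, Aldoa, Tpi1, Pgk1, Pgam1, Eno1, Pkm and Ldha. They were taken by symbol from a table of RNA-seq counts, in which all 10 of them were found among 49568 gene symbols. All 10 passed the expression filter in every comparison below.

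Each library came from a single deep digital flexor tendon of a male mouse aged 9 to 11 weeks, with peritendinous and sheath tissue left in place. The libraries formed 4 groups of 4: uninjured tendon of C57BL/6J (C57), an inbred laboratory strain, C57 tendon at 7 days after a partial cut (50% of the tendon width, digit 3 of the hind paw), uninjured tendon of MRL/MpJ (MRL), an inbred strain known for healing with little scarring, and MRL tendon at 7 days after the same cut. Within a strain the groups differed by the cut and the surgery around it, and in MRL also by library depth, given below. The methods do not state whether injured and uninjured libraries were prepared together, so other differences between them cannot be told apart from injury. Uninjured libraries are named by replicate number and injured libraries by their label, which for C57 is BI-181, BI-183, BI-184 or BI-185 (values follow this order), and for MRL BI-270, BI-272, BI-274 or BI-275. In bulk tendon, fewer cells of a type and less RNA per cell cannot be told apart.

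Glucose enters most cells through facilitative transporters such as the SLC2A family, is trapped by hexokinase, and is split and oxidised to pyruvate along the glycolytic pathway. Lactate dehydrogenase turns pyruvate into lactate and restores the NAD+ that the pathway consumes. Tendon is sparsely supplied with blood and is known for relying on glycolysis to a large degree, and fibroblasts and macrophages are known to raise glycolytic genes when they are activated or divide.

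Counts were expressed as CPM, the reads of a gene scaled to a fixed library total, on library sizes adjusted by TMM, a scaling that balances the bulk of the genes. Total counts ranged from 12552424 to 23741648, and the 4 injured MRL libraries (18524170 to 23741648) were deeper than any other library. The tendon markers Scx, Mkx, Tnmd, Fmod, Col1a1, Col1a2, Thbs4, Comp and Kera were detected in every group and took 1.44% to 6.96% of the counts of a library. Apart from these, 2 C57 libraries stood apart. BI-181 had 7.46% of its counts on 12 skeletal muscle markers, against 0.238% in BI-183 and at most 0.00324% in the other 14 libraries. All 12 were detected in BI-181, as also in BI-183 and C57 uninjured replicate 1. C57 uninjured replicate 4 had 9.43% of its counts on 12 epidermis markers, against at most 0.116% in any other library, and its Spearman correlation with its own group was 0.799 to 0.834, where the other 3 correlated with one another up to 0.967. For the 10 genes, C57 results are therefore also given without these libraries.

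In the MRL tendon, 3 of the 10 genes rose at 7 days after injury: Pgk1, Pgam1 and Ldha, each between 2.12-fold and 2.48-fold. A gene was called when its edgeR adjusted p-value was under 0.05 and its absolute log2 fold change was over 1, and 7.41% of the 14274 genes tested were called in either direction, 5.25% as higher. With the adjusted p-value alone, 6 of the 10 were higher, with Aldoa, Eno1 and Pkm added, against 7.73% of all genes tested. No member was called lower. All 10 had an unadjusted p-value under 0.05, against 28.3% of the genes tested. The median log2 fold change of the 10 genes was 0.82, and that of all genes tested was -0.03. In 7 of the 10 the injured libraries all lay above the uninjured ones, as they did in 13.5% of all genes tested.

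In the C57 tendon, edgeR called 0 of the 10 genes, and DESeq2 called 0 of the 9 that it gave a p-value. At an unadjusted p-value under 0.05 there was 1, Pfkp, which was lower, against 15.3% of the 14424 genes tested, and 1.07% of these were called. The median log2 fold change of the 10 genes was 0.38, and that of all genes tested was -0.05. No member had all its injured C57 libraries above the uninjured ones, as 7.51% of all genes tested did. Without BI-181 the count stayed at 0 (0.62% of 14849 genes called), with 1 member at an unadjusted p-value under 0.05 (12.4% of genes) and a median log2 fold change of -0.06. Without BI-181 and C57 uninjured replicate 4 it was again 0 (5.97% of 14515 genes called), with 5 members at an unadjusted p-value under 0.05 (22.4% of genes) and a median of 0.36. Of the 10, 4 members, Tpi1, Pgk1, Pgam1 and Ldha, then had all injured above all uninjured libraries, against 15.9% of the genes tested. BI-183, with 0.238% of its counts on skeletal muscle markers, was kept in all fits without both libraries, and its part in them was not tested.

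**Figure D1:**
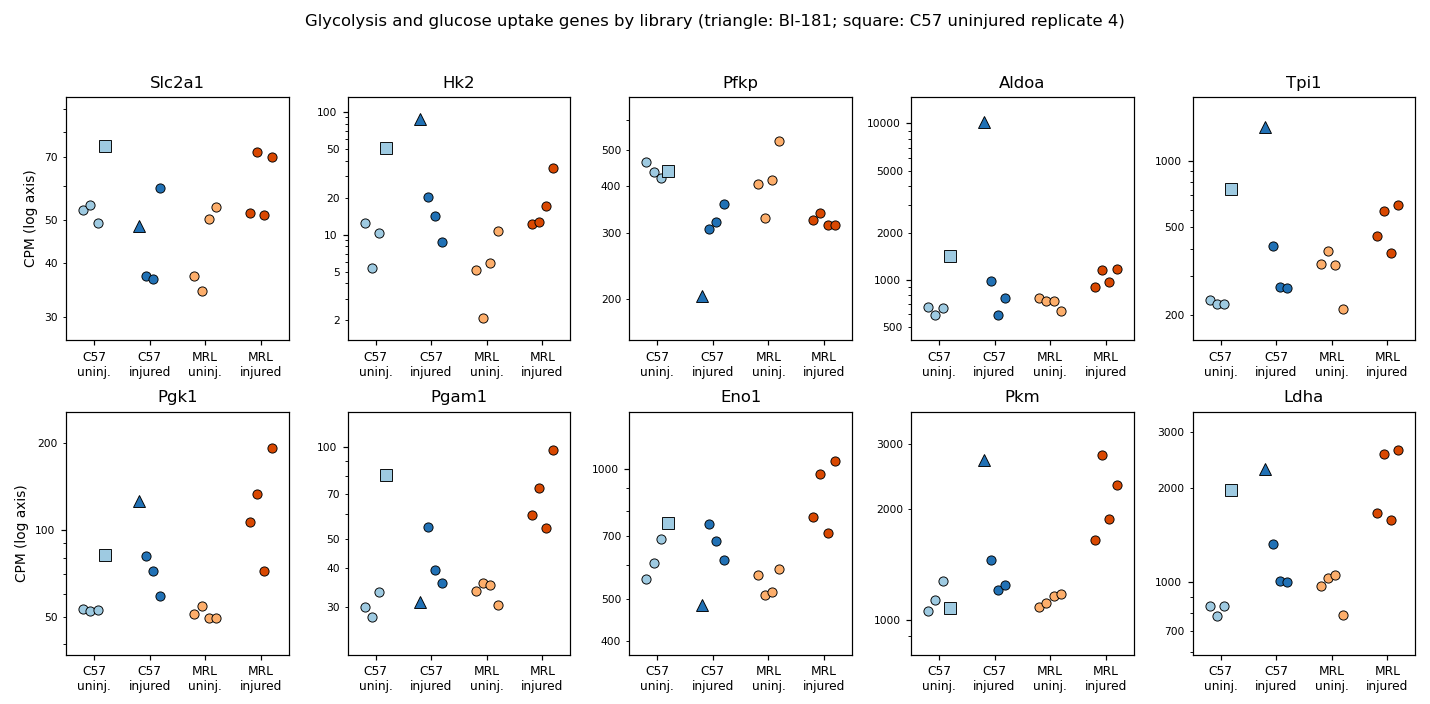
CPM on a log axis for each of the 10 genes in 16 libraries, 4 in each group, with each point 1 library, BI-181 drawn as a triangle and C57 uninjured replicate 4 as a square. In MRL the injured points stand above all the uninjured points for Hk2, Aldoa, Pgk1, Pgam1, Eno1, Pkm and Ldha, whereas in C57 the triangle or the square often holds the highest value of its group.

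The upstream sequences of the 3 called genes are shown because hypoxia-inducible factor (HIF) and MYC, known regulators of glycolytic genes, bind short motifs with the letters ACGTG. The 250 bases before the start site were taken from RefSeq (GRCm38.p6) and searched on both strands. Where RefSeq gave several starts, the window nearest to the start of a principal transcript was used. The letters ACGTG, or CACGT on the printed strand where the match is on the other one, are in capitals. Where both overlap, they form CACGTG, an E-box, which reads the same on both strands and counts as 2 matches.
Pgk1, chrX:106186850-106187099, plus strand: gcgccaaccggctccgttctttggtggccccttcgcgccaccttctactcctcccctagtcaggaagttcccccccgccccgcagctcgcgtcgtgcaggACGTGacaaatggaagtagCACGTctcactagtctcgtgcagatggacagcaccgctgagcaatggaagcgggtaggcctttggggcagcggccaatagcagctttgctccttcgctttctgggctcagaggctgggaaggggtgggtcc
Pgam1, chr19:41911621-41911870, plus strand: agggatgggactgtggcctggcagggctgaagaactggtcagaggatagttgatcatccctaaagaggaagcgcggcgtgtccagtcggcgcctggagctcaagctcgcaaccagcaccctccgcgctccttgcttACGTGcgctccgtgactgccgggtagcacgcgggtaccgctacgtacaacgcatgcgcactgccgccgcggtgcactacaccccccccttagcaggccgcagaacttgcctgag
Ldha, chr7:46845554-46845803, plus strand: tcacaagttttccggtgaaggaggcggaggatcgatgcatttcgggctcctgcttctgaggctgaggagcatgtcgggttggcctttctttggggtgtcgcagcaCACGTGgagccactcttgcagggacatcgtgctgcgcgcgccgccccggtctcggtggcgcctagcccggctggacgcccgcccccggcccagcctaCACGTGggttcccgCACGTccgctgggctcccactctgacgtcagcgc
Ldha held 5 matches, which include 2 E-boxes, first read at 145 and 48 bases before the start. Pgk1 held 2, at 150 and 131 bases before the start, and Pgam1 held 1, at 114 bases. Among all 10 genes, 5 held a match (also Slc2a1 with 1 and Hk2 with 2) and Pfkp, Aldoa, Tpi1, Eno1 and Pkm held none in the window used. Of all the windows that RefSeq gave for these genes, a match stood in 2 of 3 for Aldoa, 1 of 2 for Pkm, 1 of 2 for Ldha and 0 of 3 for Eno1, so the count depends on the start. The RefSeq start of the window used lay 244 bases from the principal transcript's start for Eno1, 208 for Pkm and 138 for Tpi1. For comparison, 16.6% of 32851 upstream windows of the same length held one and 6.02% held an E-box. These are matches of the letters ACGTG only. Other forms of the HIF and MYC motifs were not searched, so a window without a match may hold one, and binding was not measured.

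Uptake is represented by Slc2a1, which encodes the widespread glucose transporter GLUT1 (GRCm38, chromosome 4, 119108711 to 119137983, plus strand). Its CPM was 37.2, 34.5, 50.3 and 53.8 in the uninjured MRL libraries and 52.1, 71.7, 51.5 and 70.1 in the injured ones. The groups overlapped, since the highest uninjured tendon exceeded the 2 lower injured ones. With a log2 fold change of 0.49 (SE 0.20, adjusted p = 0.144 by edgeR), Slc2a1 was not called. In C57 it was 52.9, 54.2, 49.3 and 74.1 CPM in uninjured tendon and 48.5, 37.2, 36.6 and 59.4 CPM in injured tendon, BI-181 first, a log2 fold change of -0.39 (SE 0.23, adjusted p = 0.452) that was -0.39 without BI-181 and -0.23 without both libraries.

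Hk2 encodes the inducible hexokinase 2, which phosphorylates glucose (chromosome 6, 82725025 to 82774454, minus strand). In MRL it lay at 5.18, 2.09, 5.85 and 10.6 CPM in uninjured tendon and at 12.1, 12.7, 16.9 and 34.9 CPM in injured tendon. All injured libraries were higher than all uninjured ones, though by little at the nearest pair. The log2 fold change of 1.70 was the largest of the 10 genes in this comparison, but with an SE of 0.51 the adjusted p-value of edgeR was 0.0581. DESeq2 gave a log2 fold change of 1.70 with an adjusted p-value of 0.00965, and called it.

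In C57, Hk2 was 12.3, 5.32, 10.2 and 50.2 CPM in uninjured tendon, with the high value in replicate 4. Among injured C57 libraries BI-181 stood at 87.8 CPM and the others at 20.1, 14.0 and 8.67 CPM. Each C57 group thus had 1 library well above the rest. For Hk2 the C57 log2 fold change was 0.72 (SE 0.88) with all libraries, -0.48 without BI-181 and 0.62 without both, with edgeR adjusted p-values of 0.757, 0.851 and 0.436.

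Pfkp encodes the platelet-type phosphofructokinase, which catalyses the committed step of glycolysis (chromosome 13, 6579768 to 6648777, minus strand). It was the 1 member with a negative estimate in both strains. Uninjured C57 libraries held 464, 436, 422 and 439 CPM, and the injured C57 libraries, BI-181 first, held 204, 307, 321 and 359 CPM. The groups did not overlap, with the lowest value in BI-181. The log2 fold change was -0.61 (SE 0.20, unadjusted p = 0.0133, adjusted p = 0.203 by edgeR). Without BI-181 it was -0.44 (SE 0.16, adjusted p = 0.331), and without both libraries it was -0.42 (SE 0.11, adjusted p = 0.0587). In MRL, uninjured tendon ranged from 330 to 529 CPM and injured tendon from 315 to 340 CPM, so the groups overlapped, and the log2 fold change was -0.37 (SE 0.16, adjusted p = 0.160).

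Aldoa, aldolase A, splits fructose 1,6-bisphosphate and is the main aldolase of muscle (chromosome 7, 126795234 to 126800751, minus strand). In MRL it was 765, 728, 728 and 627 CPM in uninjured tendon and 902, 1156, 968 and 1175 CPM in injured tendon. Every injured library was above every uninjured one. The log2 fold change was 0.57 (SE 0.15, adjusted p = 0.0396 by edgeR), under the fold threshold.

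The C57 values of Aldoa turned on 1 library. Uninjured C57 tendon had 668, 595, 661 and 1409 CPM, and injured C57 tendon had 10288 CPM in BI-181 and 981, 598 and 765 CPM in BI-183, BI-184 and BI-185. Aldoa in BI-181 was thus more than 10 times its value in each of the other injured C57 libraries. The log2 fold change of 1.91 (SE 0.94, adjusted p = 0.373) became -0.11 (SE 0.36) without BI-181 and 0.29 (SE 0.17) without both libraries. BI-181 had 7.46% of its counts on skeletal muscle markers, and the part of muscle in its Aldoa level was not tested.

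Tpi1 encodes triosephosphate isomerase, which interconverts both triose products of aldolase (chromosome 6, 124810586 to 124814296, minus strand). MRL tendon had 341, 391, 337 and 213 CPM without injury and 456, 594, 384 and 632 CPM after it. BI-274 was just below the highest uninjured tendon, so the groups overlapped. Its log2 fold change was 0.70 (SE 0.22, adjusted p = 0.0715 by edgeR). In C57, Tpi1 was at 746 CPM in uninjured replicate 4 against 224 to 234 CPM in the other 3, and at 1417 CPM in BI-181 against 266 to 410 CPM. Its C57 log2 fold change was 0.70 (SE 0.66), -0.20 without BI-181 and 0.47 (SE 0.17, adjusted p = 0.148) without both.

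Pgk1, phosphoglycerate kinase 1, makes the first ATP of the pathway's lower part (chromosome X, 106187100 to 106203699, plus strand). In MRL it was 51.2, 54.6, 49.3 and 49.3 CPM in uninjured tendon and 106, 133, 72.2 and 192 CPM in injured tendon. The uninjured tendons were close together and each injured tendon was higher, with the widest spread among the injured. Pgk1 rose 2.48-fold, a log2 fold change of 1.31 (SE 0.26, adjusted p = 0.0121 by edgeR).

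In C57, Pgk1 was 53.1, 52.1, 52.5 and 81.7 CPM in uninjured tendon and 126, 81.0, 71.9 and 58.8 CPM in injured tendon, BI-181 first. Apart from replicate 4, the uninjured C57 tendons differed by only about 1 CPM and all injured ones were above them. The log2 fold change was 0.46 (SE 0.28, adjusted p = 0.474), 0.22 without BI-181 and 0.43 (SE 0.16, adjusted p = 0.144) without both.

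Pgam1, the non-muscle phosphoglycerate mutase (chromosome 19, 41911923 to 41918660, plus strand), had the tightest increase relative to its error. Uninjured MRL tendon gave 33.6, 35.9, 35.4 and 30.3 CPM and injured MRL tendon 59.9, 73.0, 54.1 and 97.7 CPM. The groups were well apart. Pgam1 rose 2.12-fold, with a log2 fold change of 1.08 (SE 0.20, adjusted p = 0.00905 by edgeR), and without BI-275 the estimate was 0.89, under the fold threshold. C57 values were 30.0, 27.8, 33.5 and 80.6 CPM before and 31.1, 54.7, 39.5 and 35.8 CPM after injury, where replicate 4 of the uninjured group exceeded all injured libraries. The C57 log2 fold change was -0.14 (SE 0.37) with all libraries, -0.01 without BI-181 and 0.51 (SE 0.20, adjusted p = 0.181) without both.

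Eno1, alpha-enolase (chromosome 4, 150236721 to 150248879, plus strand), was 568, 510, 518 and 587 CPM in uninjured MRL and 773, 970, 711 and 1042 CPM in injured MRL tendon, with no overlap. Its log2 fold change was 0.69 (SE 0.16, adjusted p = 0.0257 by edgeR). In C57, uninjured tendon ranged from 556 to 750 CPM and injured tendon from 483 to 745 CPM, ranges that nearly coincide. BI-181, high for Aldoa and Tpi1, had the lowest Eno1 value of its group. The C57 log2 fold change was -0.09 (SE 0.20), 0.05 without BI-181 and 0.14 without both.

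Pkm encodes the muscle-type pyruvate kinase and, by alternative splicing, the M2 form of many dividing cells, which gene counts cannot separate (chromosome 9, 59656368 to 59679375, plus strand). In MRL, uninjured tendon had 1082, 1106, 1161 and 1171 CPM and injured tendon 1641, 2800, 1882 and 2318 CPM. The lowest injured value was far above the highest uninjured one. Its log2 fold change was 0.94 (SE 0.19, adjusted p = 0.0122 by edgeR), just under the fold threshold, and it was over it without BI-270 (1.03) or without BI-274 (1.00). In C57 the uninjured range was 1054 to 1272 CPM, BI-181 stood at 2707 CPM, and the other injured libraries lay between 1205 and 1454 CPM. The C57 log2 fold change was 0.51 (SE 0.30, adjusted p = 0.463), 0.18 without BI-181 and 0.17 without both.

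Ldha, the lactate dehydrogenase subunit that favours lactate formation (chromosome 7, 46841475 to 46855627, plus strand), was the most abundant member per length in the MRL tendon. Its CPM was 976, 1034, 1053 and 788 in uninjured MRL and 1664, 2565, 1581 and 2626 in injured MRL tendon. Injured tendons fell into a lower and a higher pair, both above all uninjured ones. Ldha rose 2.20-fold, a log2 fold change of 1.14 (SE 0.21, adjusted p = 0.00934 by edgeR). In 1 fit of all 16 libraries its adjusted p-value was 0.0513.

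Uninjured C57 tendon had 840, 782 and 842 CPM of Ldha in replicates 1 to 3 and 1958 CPM in replicate 4. Injured C57 tendon had 2297 CPM in BI-181 and 1324, 1011 and 1002 CPM in BI-183, BI-184 and BI-185. The highest library of each group was again 1 of the pair that stood apart. The C57 log2 fold change of Ldha was 0.31 (SE 0.41, adjusted p = 0.776), -0.01 without BI-181, and 0.44 (SE 0.14, unadjusted p = 0.0117, adjusted p = 0.0933) without both.

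**Figure D2:**
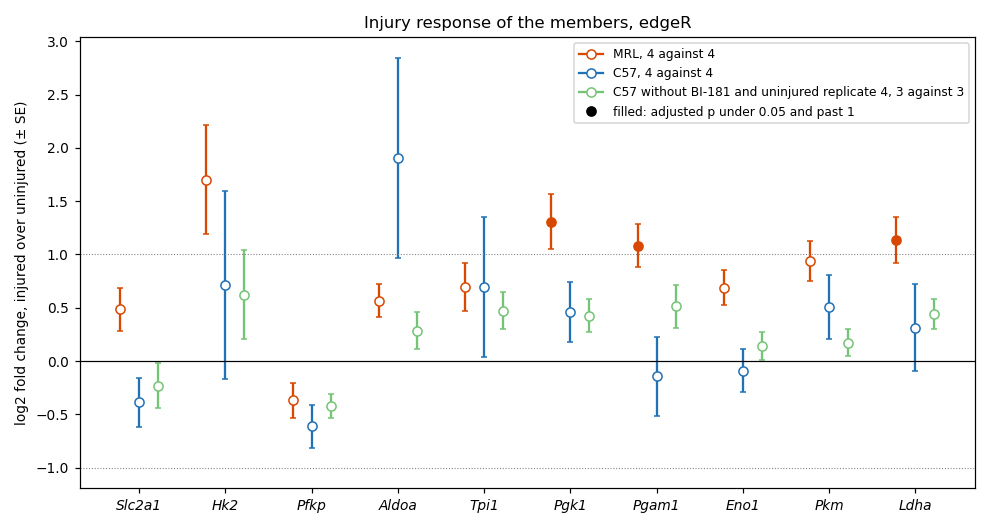
Log2 fold change of injured over uninjured tendon (± SE) for the 10 genes, in MRL (orange), in C57 with all 8 libraries (blue) and in C57 without BI-181 and uninjured replicate 4 (green), with filled points called by edgeR. Pgk1, Pgam1 and Ldha in MRL are the filled points, and the wide blue bars of Hk2, Aldoa and Tpi1 shrink once both libraries are left out.

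The strains were set against each other by the interaction, which asks whether the injury changed a gene differently in MRL than in C57. No gene was called (0% of 15947), so no member was, and DESeq2 called 210 genes, 0 of them members. At an unadjusted p-value under 0.05 there were 3 members, Slc2a1, Pgam1 and Eno1, against 12.2% of all genes. The difference in log2 fold change, MRL over C57, was 0.82 for Slc2a1 (SE 0.30, adjusted p = 0.344 by edgeR), 1.17 for Pgam1 (SE 0.43, adjusted p = 0.346) and 0.72 for Eno1 (SE 0.25, adjusted p = 0.344). It was above 0 for 8 of the 10 genes, with a median of 0.75 against -0.03 for all genes. Without both libraries it was above 0 for all 10, with a median of 0.63 and 5 members at an unadjusted p-value under 0.05 (9.36% of genes), and the smallest adjusted p-value was 0.400, that of Pkm (difference 0.76, SE 0.24). Pgk1, Pgam1 and Ldha were thus called in MRL and not in C57, and a difference between the strains was not shown for them.

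Injured MRL tendon was also compared directly with injured C57 tendon, where 3.43% of 14626 genes were called and 0 members, by edgeR as by DESeq2. At an unadjusted p-value under 0.05 there was 1 member, Pgam1, against 21.2% of the genes, with a log2 ratio of 0.80 (SE 0.24, unadjusted p = 0.00743, adjusted p = 0.0955). Without BI-181 there were 5, Tpi1, Pgk1, Pgam1, Pkm and Ldha, against 18.7% of 15205 genes, with a smallest adjusted p-value of 0.0941 and a median log2 ratio of the 10 genes of 0.57 in place of 0.38. Leaving out BI-181 turned the sign of the ratio for Aldoa from -1.63 to 0.41, for Tpi1 from -0.23 to 0.69 and for Hk2 from -0.81 to 0.40. In the same 7 libraries, those of injured MRL lay above all injured C57 libraries for Pkm (0.72, adjusted p = 0.132) and Ldha (0.90, SE 0.24, adjusted p = 0.0941), as they did for 10.5% of all genes tested. Uninjured MRL and uninjured C57 tendon gave no called gene with edgeR (0% of 14055) and so 0 members, and DESeq2 also called 0 members. At an unadjusted p-value under 0.05 there was 1, Hk2, against 7.87% of all genes, and its log2 ratio of -1.75 (SE 0.74, unadjusted p = 0.0415, adjusted p = 0.621) was -0.65 without C57 uninjured replicate 4. MRL reads were mapped to the C57 reference, and its part in levels compared between strains was not tested.

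Levels of different genes were compared per length, as CPM per kb of the longest principal transcript. In uninjured MRL tendon, Ldha was highest at 545 ± 68.6 (SD, n = 4), followed by Aldoa at 471 ± 39.3 and Pkm at 465 ± 17.6, and these 3 did not differ beyond their spread. Eno1 followed at 269 ± 18.7, Tpi1 at 199 ± 47.2 and Pfkp at 101 ± 19.8. Pgk1 (28.0 ± 1.35), Pgam1 (19.1 ± 1.42) and Slc2a1 (13.5 ± 2.92) were far lower, and Hk2 was lowest at 1.08 ± 0.639. After injury the order was Ldha at 1194 ± 319, Pkm at 888 ± 210 and Aldoa at 695 ± 89.8 CPM per kb. Neighbours in this order overlapped in their libraries, but every injured library held more Ldha than any held Aldoa. Eno1 followed at 431 ± 77.5, and Hk2 stayed lowest at 3.48 ± 1.94.

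**Figure D3:**
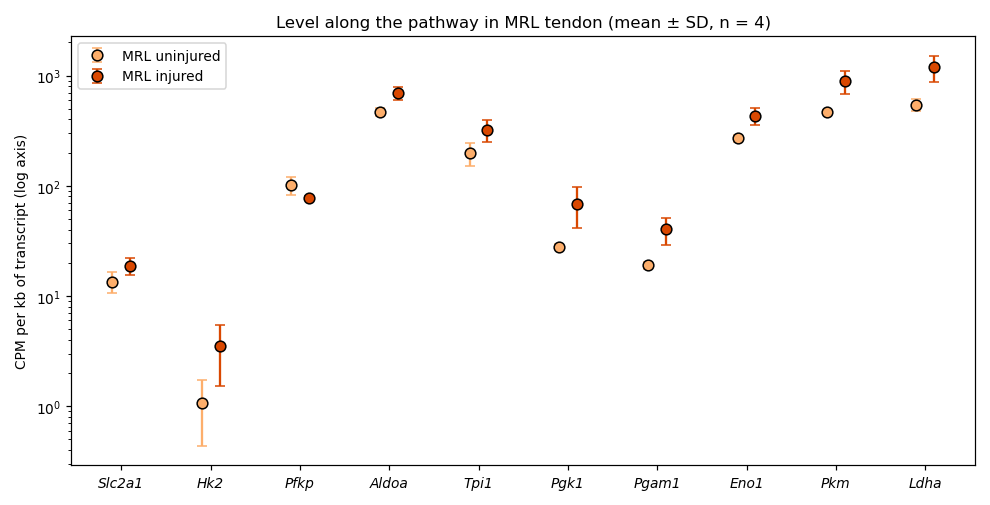
CPM per kb of transcript on a log axis along the pathway, from the transporter Slc2a1 to Ldha, in uninjured and injured MRL tendon (points are means and bars SD, n = 4). Hk2 is lowest in both groups and Ldha highest, and Pgk1 and Pgam1 lie below the enzymes beside them.

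The low places of Pgk1 and Pgam1 in this order are uncertain, because reads that map to several loci cannot be assigned to a gene with certainty. Of all runs of 100 nt, the read length, in the transcripts of Pgk1, 67.0% also occurred in a transcript of another symbol, mainly the retrogene Pgk1-rs7. The share was 39.7% for Pgam1 (pseudogenes Pgam1-ps2 and Pgam1-ps1), 39.5% for Eno1 (mainly Eno1b), 14.2% for Pfkp (the neighbour Pitrm1), 7.52% for Pkm, and under 1% for Ldha, Tpi1 and Slc2a1. It was 0 for Hk2 and Aldoa. Few reads were counted on the copies of the called genes: at most 19 in a library on Pgk1-rs7, against 613 to 3449 on Pgk1, and at most 6 on Pgam1-ps2, against 377 to 1753 on Pgam1. The treatment of multi-mapped reads is not given, so these low counts do not show how many reads were shared. The part of shared reads in the fold changes of Pgk1 and Pgam1 was not tested. For Eno1b the count was 10 to 3411 against 7060 to 21371 on Eno1, or up to 16.6% of it. Exons of Pkm overlapped those of Gm49759 on the same strand over 15.3% of their length, and strand use in the counting is not stated.

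The members moved together across libraries to different degrees, as a description over 16 libraries that share the injury and strain groups and the 2 libraries with other tissue. The Pearson correlation of log2 CPM with Ldha was 0.93 for Pgk1, 0.89 for Tpi1, 0.83 for Pkm and 0.80 for Pgam1. It was 0.68 for Hk2, 0.66 for Aldoa, 0.59 for Eno1 and 0.49 for Slc2a1, and -0.63 for Pfkp. Over the 14 libraries without BI-181 and C57 uninjured replicate 4 it was 0.98 for Pgam1, between 0.94 and 0.95 for Aldoa, Tpi1, Pgk1 and Pkm, 0.86 for Eno1, 0.56 for Hk2 and 0.48 for Slc2a1, with Pfkp at -0.69. The lower part of the pathway thus followed Ldha closely in those libraries, the entry steps Slc2a1 and Hk2 less so, and Pfkp ran the other way. The 10 genes took 0.402% to 0.433% of the counts of an uninjured MRL library, 0.588% to 0.823% of an injured MRL library, 0.411% to 0.568% of an uninjured C57 library, 1.72% of BI-181, and 0.468% to 0.579% of the other injured C57 libraries.

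The remaining enzymes of glycolysis were 16 further genes, of which 12 were tested in MRL. Of these, edgeR called 0, against 7.41% of all genes tested, and DESeq2 called none. At an unadjusted p-value under 0.05 by edgeR there were 2, Gpi1 and Gapdh, against 28.3% of all genes tested. The median log2 fold change was 0.24. Gpi1, the isomerase between hexokinase and phosphofructokinase, was 93.1 to 140 CPM in uninjured and 151 to 226 CPM in injured MRL tendon, with no overlap, and had a log2 fold change of 0.57 (adjusted p = 0.0647). Gapdh, which oxidises the triose phosphate, had 0.62 (adjusted p = 0.0775), with 270 to 378 CPM against 336 to 594 CPM. Hk1, the widespread hexokinase, was at 57.2 to 104 CPM in uninjured and 68.6 to 128 CPM in injured MRL tendon, with a log2 fold change of 0.13 (adjusted p = 0.758). Per length, Hk1 stood at 23.6 ± 5.84 CPM per kb in uninjured and 25.7 ± 6.39 CPM per kb in injured MRL tendon (SD, n = 4), above Hk2 in both. Hk3 of myeloid cells (2.21, adjusted p = 0.199) and Pfkl (0.44, adjusted p = 0.354) were not called either, nor were the brain-type isoenzymes Aldoc (0.31, adjusted p = 0.832) and Eno2 (-0.06, adjusted p = 0.932).

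The muscle isoenzymes tracked the muscle markers instead. Pgam2, the muscle phosphoglycerate mutase, was 1120 CPM in BI-181 and 39.0 CPM in BI-183, against at most 2.49 CPM in the other 14 libraries. Eno3, muscle enolase, was 3845 CPM in BI-181 and 125 CPM in BI-183, against at most 22.7 CPM elsewhere. Pfkm, muscle phosphofructokinase, was 1642 CPM in BI-181 and 49.7 CPM in BI-183, against at most 24.8 CPM elsewhere. The pattern repeats the order of the muscle marker shares in BI-181 and BI-183, whereas their non-muscle relatives Pgam1, Eno1 and Pfkp were lowest of their group in BI-181 (31.1, 483 and 204 CPM). In MRL the muscle markers took 0.00183% to 0.00324% of the counts in uninjured and 0.000554% to 0.00146% in injured tendon, without overlap. Of the 5 that edgeR tested there, 1 was called higher and 1 lower, and DESeq2 called Tnni2 higher and Atp2a1 and Tcap lower. In MRL the log2 fold changes were -0.34 for Pgam2, 0.24 for Eno3 and -0.59 for Pfkm, with adjusted p-values of 0.820, 0.789 and 0.182.

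**Figure D4:**
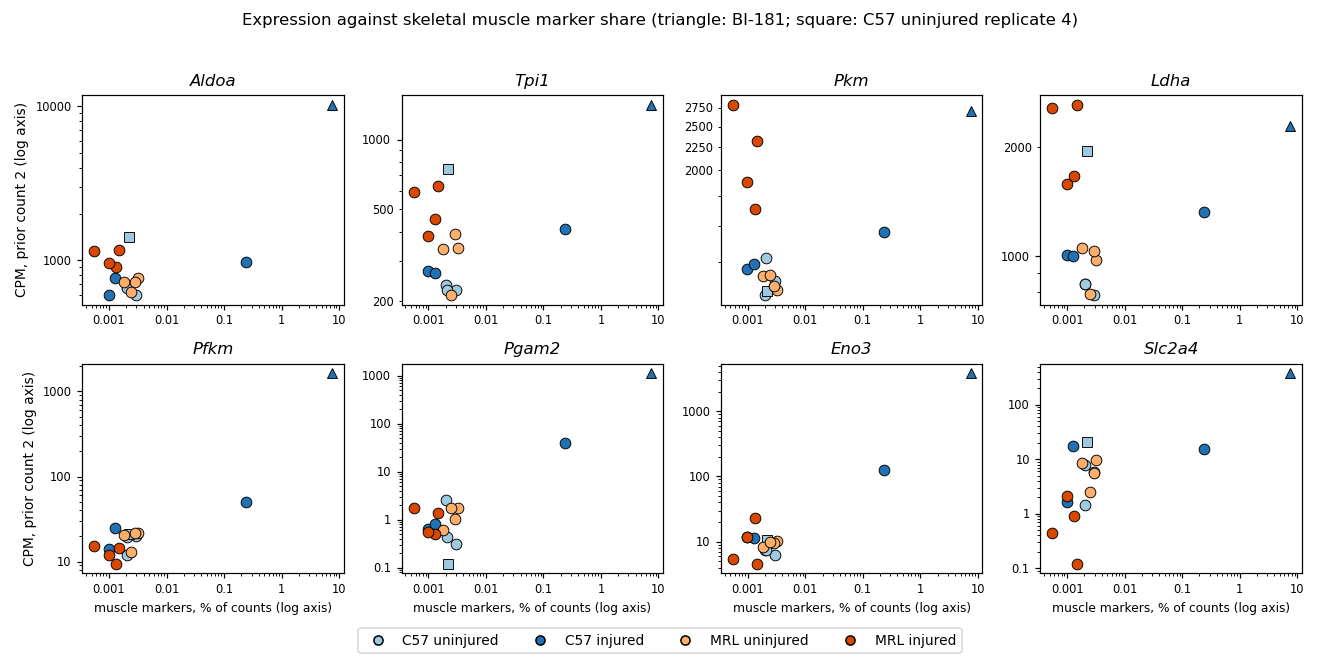
CPM (prior count 2, log axis) against the share of counts on 12 skeletal muscle markers (log axis) in 16 libraries for 4 members and 4 muscle-linked genes, with BI-181 as a triangle and C57 uninjured replicate 4 as a square. BI-181 is at the top right for Aldoa, Tpi1, Pfkm, Pgam2, Eno3 and Slc2a4, with BI-183 next along the axis for muscle markers at 0.238%, while the high MRL values of Pkm and Ldha sit at the low end of that axis.

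Among 6 other glucose transporters, edgeR called 1 in MRL, as higher, and 4 had an unadjusted p-value under 0.05, against 28.3% of all genes tested. Slc2a6, which encodes GLUT6, was 0.929, 0.144, 1.02 and 0.241 CPM in uninjured MRL and 21.5, 14.5, 10.4 and 12.6 CPM in injured MRL tendon. It rose, with a log2 fold change of 4.63 (SE 0.63, adjusted p = 0.00238). In C57, Slc2a6 was 2.02, 8.89, 4.33 and 0 CPM before and 21.1, 16.9, 23.4 and 20.1 CPM after injury, also without overlap, with a log2 fold change of 2.38 (SE 1.02, adjusted p = 0.313), and it was called without both libraries (1.99, adjusted p = 0.0424). DESeq2 also called Slc2a6 in MRL, and Slc2a3 and Slc2a4 as lower. Slc2a3, which encodes GLUT3, lay at 15.5 to 22.7 CPM in uninjured and 1.23 to 8.40 CPM in injured MRL tendon, with a log2 fold change of -1.49 (adjusted p = 0.0803). Slc2a4, the insulin-responsive transporter of muscle and fat, had -3.04 (adjusted p = 0.0808) in MRL and stood at 380 CPM in BI-181.

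The handling of lactate and pyruvate had 2 calls by edgeR (DESeq2 added Slc16a7, as higher) among 16 tested genes in MRL, with a median log2 fold change of 0.07 for the list. Slc16a3, which encodes the lactate exporter MCT4, was 62.8, 52.5, 49.0 and 70.0 CPM in uninjured and 119, 272, 117 and 161 CPM in injured MRL tendon. It rose, with a log2 fold change of 1.52 (SE 0.27, adjusted p = 0.00726 by edgeR), and the groups were apart. Ldhb, the lactate dehydrogenase subunit known for favouring pyruvate formation, fell, from 51.7, 51.3, 49.2 and 29.1 CPM to 14.3, 14.7, 25.6 and 24.9 CPM (log2 fold change -1.18, SE 0.28, adjusted p = 0.0231). Ldha and Ldhb thus changed in opposite directions in injured MRL tendon. Slc16a1, the widespread transporter MCT1, was at 50.5 to 93.3 CPM against 60.6 to 204 CPM (0.76, adjusted p = 0.184). In C57, Slc16a3 (1.04, adjusted p = 0.392) and Ldhb (0.56, adjusted p = 0.804) were not called. Without both libraries Slc16a3 was 0.43 (adjusted p = 0.370), and Ldhb turned to -0.996 (SE 0.43, adjusted p = 0.220), again without a call. Ldhb stood at 149 CPM in BI-181 against 6.49 to 26.8 CPM in the other 3 injured C57 libraries.

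**Figure D5:**
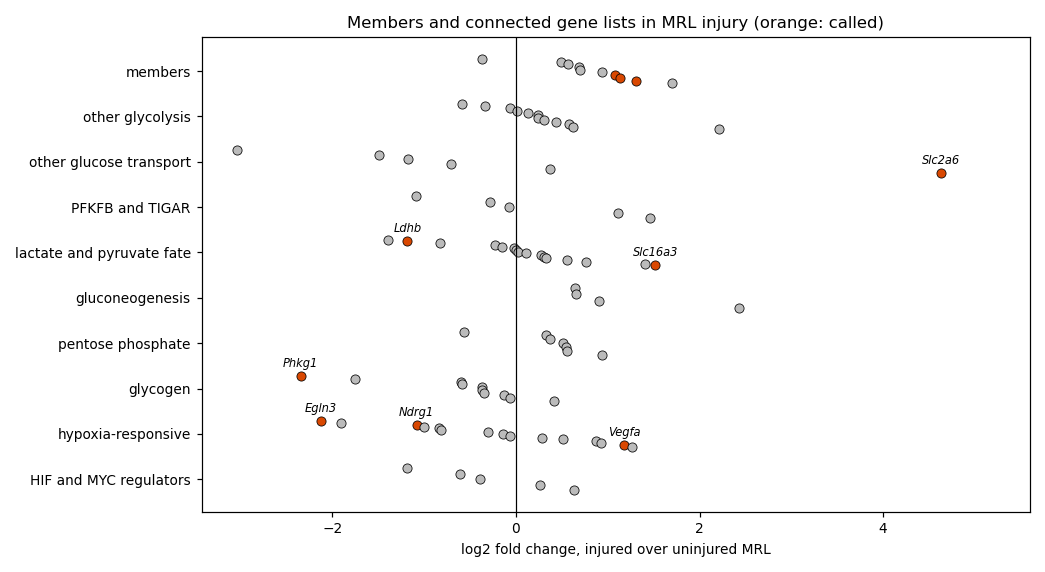
Log2 fold change of injured over uninjured MRL tendon for each tested gene (points) of the 10 members and of 9 connected lists, with called genes in orange and named outside the members, whose 3 called genes are Pgam1, Ldha and Pgk1. Of the 10 members, 9 lie to the right of 0, as do 4 of 4 gluconeogenesis and 6 of 7 pentose phosphate genes. Of the glycogen genes 1 of 10 does, and the other lists spread to both sides.

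Connected pathways varied, and their counts at an unadjusted p-value under 0.05 stand beside the 28.3% of all genes tested in MRL. Of 7 pentose phosphate genes 0 were called by edgeR or DESeq2 in MRL. By edgeR 3 of them had an adjusted p-value under 0.05, named here after their values were seen (G6pdx at 0.56, Pgd at 0.94 and Taldo1 at 0.55 on the log2 scale), 5 had an unadjusted p-value under 0.05 and the list's median was 0.52. Of 4 genes of gluconeogenesis tested by edgeR 0 were called, also by DESeq2, all 4 had an unadjusted p-value under 0.05, and the median was 0.78. Of 5 genes that set fructose 2,6-bisphosphate 0 were called by either tool, with 1 at an unadjusted p-value under 0.05 and a median of -0.07. Glycogen metabolism had 1 call in 10 genes, Phkg1 of muscle phosphorylase kinase, which fell (-2.35, SE 0.46, adjusted p = 0.0108), and a median of -0.37, and DESeq2 also called Pygm as lower. The part of the lower muscle marker share of injured MRL tendon in the values of Phkg1, Pygm and Slc2a4 was not tested. In C57 edgeR called 0 genes of the 7 lists on other glycolysis, transport, fructose 2,6-bisphosphate, lactate and pyruvate, gluconeogenesis, pentose phosphate and glycogen, and DESeq2 called 2, Pfkfb4 and Ugp2. At an unadjusted p-value under 0.05 by edgeR there were 4 other glycolysis genes (Pfkm, Gapdh, Pgam2 and Eno3), 3 glycogen genes (Gys1, Pygm and Ugp2), 1 transporter (Slc2a6) and 1 fructose 2,6-bisphosphate gene (Pfkfb4), where 15.3% of all genes tested had such a value in C57. Without BI-181 the other glycolysis genes were 1 in place of 4 and the glycogen genes stayed at 3, against 12.4% of all genes tested. The glycogen median was then 0.36 in place of 1.18. Of the glycogen genes, Pygm, muscle glycogen phosphorylase, had a C57 log2 fold change of 7.96 with all libraries. It was 3.55 without both, where BI-183 with its muscle markers was kept. Without both libraries edgeR called 1 gene of these 7 lists in C57, Slc2a6.

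Genes known to respond to low oxygen did not move one way. Of 15 tested in MRL, edgeR called Vegfa, an angiogenic factor, as higher (12.9, 17.4, 19.1 and 10.1 CPM against 28.3, 37.4, 31.8 and 37.1 CPM, log2 fold change 1.18, SE 0.24, adjusted p = 0.0139). It called Egln3, a HIF prolyl hydroxylase, as lower (28.8 to 62.6 CPM against 5.78 to 12.8 CPM, log2 fold change -2.13, SE 0.33, adjusted p = 0.00416). Ndrg1, a stress-responsive gene, also fell (276 to 344 CPM against 69.7 to 185 CPM, log2 fold change -1.08, SE 0.26, adjusted p = 0.0269), and DESeq2 called these 3 in the same directions and added Mxi1, as lower. Of the 15, 9 had an unadjusted p-value under 0.05, against 28.3% of all genes tested, and 6 an adjusted one, 2 higher and 4 lower. The list's median was -0.14, and 6 of the 15 estimates were above 0. In C57 edgeR called 0 of the 15 and DESeq2 0 of the 14 that it gave a p-value. By edgeR 4 had an unadjusted p-value under 0.05, against 15.3% of all genes tested, and the median was -0.35. Without both libraries edgeR called 1 of the 15 in C57, Vegfa (1.47, SE 0.34, adjusted p = 0.0343). In that fit 8 had an unadjusted p-value under 0.05, against 22.4% of all genes tested, and the median was -0.41. Ndrg1 then had -0.81 (SE 0.19, adjusted p = 0.0365), under the fold threshold. Of 5 tested genes of the regulator list 0 were called in either strain by edgeR, with 3 in MRL and 1 in C57 at an unadjusted p-value under 0.05, and DESeq2 called 0 in C57 and 1 in MRL (Hif3a). Hif1a, the oxygen-regulated HIF subunit, had log2 fold changes of 0.27 (adjusted p = 0.372) in MRL, 0.05 (adjusted p = 0.936) in C57 and 0.27 (adjusted p = 0.393) in C57 without both libraries. Myc had 0.63 (adjusted p = 0.190), -0.21 (adjusted p = 0.877) and 0.48 (adjusted p = 0.407).

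Some markers of other cells and of dividing cells also differed with injury. All 11 macrophage markers were detected in each group and took 0.105% to 0.179% of the counts in uninjured and 0.341% to 0.658% in injured MRL tendon, and 0.103% to 0.189% and 0.476% to 0.935% in uninjured and injured C57 tendon. Of these 11, edgeR called 4 higher in MRL, 5 in C57 and 10 in C57 without both libraries, and DESeq2 called 4 in MRL and 10 in C57. Among all genes tested, edgeR called 750 of 14274 higher in MRL, 131 of 14424 in C57 and 658 of 14515 in C57 without both. The 12 proliferation genes took 0.000881% to 0.00198% in uninjured and 0.0297% to 0.106% in injured MRL tendon. In C57 they took 0.00169% to 0.00240% in uninjured replicates 1 to 3, 0.0304% in replicate 4, and 0.00947% to 0.0565% in injured tendon. By edgeR all 12 were called higher in MRL, 0 in C57 with all libraries (1 at an unadjusted p-value under 0.05, 0 by DESeq2) and 10 in C57 without both. The 11 neutrophil markers summed to 0.0664 to 2.90 CPM in uninjured and 4.41 to 31.7 CPM in injured MRL tendon, with 5 of 11 at 0 in all uninjured and 4 in all injured MRL libraries. Of these markers edgeR tested 2 and called 0 in MRL (both at an unadjusted p-value under 0.05), and DESeq2 called S100a8 and S100a9 higher. In C57 they summed to 0.778 to 143 CPM in uninjured and 3.79 to 7.29 CPM in injured tendon. The 8 endothelium markers summed to 1.99 to 80.1 CPM in uninjured and 1.51 to 32.1 CPM in injured MRL tendon, and to 20.5 to 98.2 CPM and 120 to 203 CPM in C57, where edgeR called 0 (6 at an unadjusted p-value under 0.05), or 2 without both libraries, and DESeq2 3. The 5 red cell markers summed to 16.3 to 109 and 16.7 to 312 CPM in MRL, and to 29.8 to 78.5 and 74.7 to 502 CPM in C57, where DESeq2 called 3 higher and edgeR 0 (4 at an unadjusted p-value under 0.05). The 6 fat cell markers summed to 4.25 to 87.5 and 0 to 179 CPM in MRL, and to 15.5 to 111 and 25.2 to 247 CPM in C57. In C57, DESeq2 called 1 fat cell marker higher, Fabp4, and edgeR 0 (1 at an unadjusted p-value under 0.05). In MRL, 0 of the endothelium, red cell and fat cell markers that edgeR tested had an unadjusted p-value under 0.05. Between injured tendons, edgeR called 4 macrophage, 2 endothelium and 1 red cell marker lower in MRL than in C57, and 1 tendon marker higher. Of the 14626 genes tested there, 275 were called lower and 227 higher. The part of the cells marked by these lists in the rise of Pgk1, Pgam1 and Ldha, or in the comparison of injured tendons, was not tested.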

How the data were processed

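RNA-seq counts of 16 tendon libraries were analysed. Per the submitters' processing notes and the methods, the authors used Trimmomatic 0.36 for trimming of the 100-nt single-end reads, STAR 2.5.2b for alignment to GRCm38.p5 and featureCounts (Subread 1.5.0p3) for counting. The deposited table holds whole-number counts per gene symbol, without normalization. The annotation, strand setting and treatment of multi-mapped reads in the counting are not given in the sources used here. The authors made their own calls with DESeq2 1.14.1. In the methods, 1 ng of RNA was pre-amplified, whereas the labels describe a TruSeq kit with 100 ng. No molecular identifiers are named, so counting error alone understates the technical error. Methods give 4 animals per group.

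Groups were taken from the labels, and library totals ranged from 12552424 to 23741648. All genes were tested with edgeR 4.0.16 in R 4.3.3 (expression filter, TMM, robust quasi-likelihood test, Benjamini-Hochberg adjustment over all genes tested). Injury was fitted within each strain on 8 libraries, the interaction on 16, and the strains on the injured or uninjured libraries. A call needed an adjusted p-value under 0.05 and, except for the interaction, an absolute log2 fold change over 1, the criteria of the study. Standard errors are the absolute log2 fold change over the root of F. Log2 CPM used a prior count of 2. The tests were also run on simulated counts with the same variability for every gene and no outlying library. Such counts are unlike these data, so that run does not show how the tests behave here.

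Gene positions, transcript lengths and shared runs of bases came from GENCODE M21 (GRCm38), in which Aldoa has 2 gene records, of which the longer was used. Upstream windows came from RefSeq (GRCm38.p6). All 10 members matched both.

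Alternatives were upper-quartile, RLE and no scaling factors, no filter, a minimum of 10 counts in every library, DESeq2 1.42.0, removal of muscle and epidermis markers, 1 fit of all libraries, a replicate block, and leaving out libraries. Named genes were the members, their isoenzymes and transporters, Hif1a, Myc, each gene of the metabolic, hypoxia and regulator lists called in an injury comparison, and the 5 genes nearest to the members. The members and lists were chosen with earlier results of these data known.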

Additional observations from a re-analysis of the deposited data

Results flagged for a closer look

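In C57 uninjured replicate 4, 4 of the members lay far from the other 3 uninjured C57 libraries, by a test on log2 CPM of the gap to the nearest value as a share of the group's range (Dixon's test at the 95% level). Aldoa was 1409 CPM there and 595 to 668 CPM in the others. Tpi1 was 746 CPM against 224 to 234 CPM. Pgk1 was 81.7 CPM against 52.1 to 53.1 CPM. Ldha was 1958 CPM against 782 to 842 CPM. In all, 40 sets, each the 4 values of a gene in a group, were examined in this way. About 1 in 20 such sets is flagged by chance. All 4 flags came from the same library, so they are not independent of one another. The same test on CPM, a scale added after seeing the data, gave 10 in place of 4. It added Pgam1 (80.6 CPM) and Hk2 (50.2 CPM) in C57 uninjured replicate 4, and Hk2 (87.8 CPM), Aldoa (10288 CPM), Tpi1 (1417 CPM) and Pkm (2707 CPM) in BI-181. Replicate 4 had 9.43% of its counts on epidermis markers and BI-181 had 7.46% on skeletal muscle markers, and the part of those cells was not tested.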

How the results depend on the processing

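The count of members called stayed at 0 in C57 injury, in the interaction and in both strain comparisons under every alternative that was run for each. In MRL injury it was 6 with no fold-change threshold and otherwise 2 to 4, also over the fits that left out 1 library: Hk2 was added with no filter, with at least 10 counts, with DESeq2 and without MRL uninjured replicate 4, Pkm without BI-270 or BI-274, while Ldha was lost in 1 fit of all libraries and Pgam1 without BI-275. Calls over all genes moved more. In C57, 155 became 907 with DESeq2, 269 with at least 10 counts, 367 in 1 fit of all libraries and 867 without both libraries, and 10 (without uninjured replicate 3) to 750 (without uninjured replicate 4) when 1 library was left out. In MRL, 1057 became 1808 with DESeq2 and 689 without uninjured replicate 1. Between injured tendons, 502 became 1473 with DESeq2 and 231 to 481 when 1 library was left out, the lowest without BI-185. Between uninjured tendons 0 became 104 with DESeq2, and in the interaction 0 became 210. With total counts in place of TMM, the share of higher calls between injured tendons was 32.9% in place of 45.2%, the median log2 ratio of all genes moved from -0.06 to -0.20, that of C57 injury from -0.05 to 0.08, and that of the interaction from -0.03 to -0.14. Signs turned for uncalled members only. With total counts, C57 injury gave 0.031 for Pgam1 and 0.058 for Eno1, and Pfkp between injured tendons was -0.040. Without both libraries, C57 injury gave 0.51 for Pgam1 and 0.14 for Eno1, and the interaction 0.27 for Aldoa and 0.22 for Tpi1. Between uninjured tendons, Pkm was 0.0067 with upper-quartile factors and 0.012 with no filter, and Tpi1 was 0.065 with the replicate block. Leaving out 1 library at a time, C57 injury ranged from -0.48 to 1.79 for Hk2, -0.11 to 2.29 for Aldoa, -0.20 to 1.35 for Tpi1, -0.30 to 0.36 for Pgam1, -0.16 to 0.047 for Eno1 and -0.012 to 0.74 for Ldha. The interaction ranged from -0.12 to 2.14 for Hk2, -1.73 to 0.65 for Aldoa and -0.68 to 0.87 for Tpi1. The ratio between injured tendons ranged from -1.22 to 0.40 for Hk2, -0.040 to 0.20 for Pfkp, -1.98 to 0.41 for Aldoa and -0.48 to 0.69 for Tpi1. Between uninjured tendons it ranged from -0.20 to 0.034 for Pfkp, -0.37 to 0.14 for Aldoa, -0.36 to 0.49 for Tpi1, -0.52 to 0.15 for Pgam1, -0.047 to 0.039 for Pkm and -0.35 to 0.22 for Ldha. The cause of these changes was not tested beyond the libraries left out. Same-numbered uninjured libraries did not deviate together (correlations of -0.26, 0.02, -0.10 and -0.23), so the replicate block, run between uninjured tendons only, has no pairing behind it (0 members called). No paired analysis was possible for the other comparisons because the labels give the injured libraries no replicate numbers. In C57 the SE was 0.88 for Hk2 and 0.94 for Aldoa, and without both libraries it was 0.42 and 0.17.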

Other observations

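The genes whose log2 CPM over the libraries was most like the mean of the 10 members were Pomp (Pearson r of 0.918), Atp6v1g1 (0.913), Dcun1d5 (0.907), Pfdn1 (0.905) and Ywhae (0.905) among 11800 genes in 16 libraries. Pomp is a proteasome assembly factor, Atp6v1g1 a subunit of the vacuolar proton pump, Pfdn1 a prefoldin chaperone subunit and Ywhae a 14-3-3 protein. Without BI-181 and C57 uninjured replicate 4, an alternative chosen after seeing the data, the nearest were Slbp (0.970), Ank (0.964), Eif5a (0.958), Pdia3 (0.957) and Yipf5 (0.956) among 11834 genes in 14 libraries. Slbp binds histone mRNA, Eif5a is a translation factor and Pdia3 folds secreted glycoproteins. No gene was on both lists of 5, and all points share the same strain and injury groups.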
